A study of Arabidopsis thaliana with 58 samples.

Results

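The H3K9me2 peaks of the chromosome 1 pericentromere were the peaks whose summit lay from position 12800001 to 16800000 of chromosome 1, a stretch of 4 Mb set by its low density of protein-coding genes and not by H3K9me2. Computed again from the annotation, the density rule gave the same borders. The peaks numbered 514 of the 4144 peaks deposited for the library. The same density rule gave the pericentromeres of chromosome 3 (806 peaks) and chromosome 5 (565 peaks), which were used for comparison. At the lower border, the last peak outside was chr1:12758120-12759796 (fold 2.32) and the first inside was chr1:12813723-12814349 (fold 2.52). At the upper border, the last inside was chr1:16791226-16791570 (fold 2.29) and the first outside was chr1:16853498-16857869 (fold 4.28).

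The series measured DNA methylation and H3K9me2 in Arabidopsis thaliana, and 1 library is described here: H3K9me2 ChIP-seq of unopened flower buds from Col-0 wild-type plants, the reference accession. The sample labels give a stage of 4 weeks. Nuclei were cross-linked with formaldehyde, the chromatin was sheared and precipitated with an antibody against H3K9me2 (ab1220), and single-end reads of 50 bp were sequenced. A bud holds many cell types, so each peak is a mixture over them. With 1 library there was no replicate, so no difference below was tested, and intervals on shares of loci are 95% Wilson intervals that cover counting error only. An H3 library of the same chromatin was not analysed here. The depth of the library is unknown.

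H3K9me2, the dimethylation of lysine 9 of histone H3, marks silent heterochromatin in plants. In Arabidopsis, methyltransferases such as KYP bind methylated DNA and place the mark, and the DNA methyltransferases CMT3 and CMT2 bind the mark and methylate cytosines, CMT3 mostly in the CHG context (H is A, C or T). Transposons and other repeats accumulate around the centromere and carry both marks, while most expressed genes lack them.

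The sequences under the 5 peaks of the highest fold are shown first, as 201 bp windows centred on each summit and read from TAIR10.1. Capitals mark the triplets CAG, CTG, CCG and CGG, which are the CHG sites of either strand, and neighbouring triplets may overlap.
Summit in AT1G43444, plus strand, chr1:16385181-16385381: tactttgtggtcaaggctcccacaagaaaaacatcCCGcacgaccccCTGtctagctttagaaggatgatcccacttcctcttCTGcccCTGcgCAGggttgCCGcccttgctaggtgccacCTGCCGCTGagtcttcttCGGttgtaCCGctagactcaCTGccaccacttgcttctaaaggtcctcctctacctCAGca
Summit in AT1G36120, plus strand, chr1:13511128-13511328: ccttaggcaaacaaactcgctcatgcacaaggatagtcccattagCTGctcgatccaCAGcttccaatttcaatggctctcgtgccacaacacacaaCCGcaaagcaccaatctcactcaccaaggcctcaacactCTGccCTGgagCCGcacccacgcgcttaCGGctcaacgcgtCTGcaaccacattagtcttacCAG
Summit in AT1G38185, plus strand, chr1:14337596-14337796: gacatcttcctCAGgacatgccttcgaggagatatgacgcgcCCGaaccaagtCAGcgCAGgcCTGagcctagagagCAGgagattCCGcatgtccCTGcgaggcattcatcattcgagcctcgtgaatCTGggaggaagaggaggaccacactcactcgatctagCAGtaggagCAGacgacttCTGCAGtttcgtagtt
Summit in AT1G36810, plus strand, chr1:13952176-13952376: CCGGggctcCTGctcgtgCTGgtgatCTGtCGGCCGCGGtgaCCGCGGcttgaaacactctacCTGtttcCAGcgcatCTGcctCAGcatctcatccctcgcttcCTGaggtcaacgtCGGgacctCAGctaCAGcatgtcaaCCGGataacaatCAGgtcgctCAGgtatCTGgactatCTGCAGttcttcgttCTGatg
Summit in AT1G38270, plus strand, chr1:14387793-14387993: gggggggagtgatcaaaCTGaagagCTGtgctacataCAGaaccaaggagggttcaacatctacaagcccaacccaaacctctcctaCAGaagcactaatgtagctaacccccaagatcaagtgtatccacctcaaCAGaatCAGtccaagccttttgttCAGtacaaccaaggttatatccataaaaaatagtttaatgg
These windows held 13, 9, 13, 26 and 7 such sites. Over the 514 peaks the median was 7 sites in a window (quartiles 5 and 10), and 99.4% of windows held at least 1. Of the 199 peak-free gaps of at least 1 kb, 193 were used for comparison, without the 2 at the borders of the region and 4 that were mostly N. Windows centred on these gaps had a median of 3 (quartiles 2 and 5), and 90.2% held at least 1. Nearly every window of either kind thus held the triplets, and the difference lay in their number. All 5 summits lay in loci annotated as pseudogenes.

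2 tandem repeats of the region are shown next, chosen since windows built of them lay almost wholly inside peaks. Tandem repeats were found from the match of the sequence to itself at lags of 100 to 259 bp, and each unit below starts at the window with the closest match. The same search found 1 window with a period of 144 bp, chr1:13221001-13222000, of which 0% was inside peaks.
Unit of the 178 bp repeat, plus strand, chr1:15084001-15084178: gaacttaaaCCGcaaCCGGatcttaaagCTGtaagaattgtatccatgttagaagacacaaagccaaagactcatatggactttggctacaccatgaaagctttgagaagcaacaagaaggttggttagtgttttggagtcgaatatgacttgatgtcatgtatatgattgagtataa
Unit of the 159 bp repeat, plus strand, chr1:14691001-14691159: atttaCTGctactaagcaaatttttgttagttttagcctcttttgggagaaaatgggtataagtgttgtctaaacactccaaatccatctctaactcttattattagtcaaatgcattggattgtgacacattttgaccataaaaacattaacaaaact
The window with the 178 bp unit lay in chr1:15081796-15086089, whose fold was 1.75. That peak ended 44 bp into a run of N of 1000 bp.

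The 200 bp before the start of 4 genes with well-described families are shown for contrast, on each gene's own strand. NIA2 (nitrate reductase) and GAPB (a subunit of the chloroplast glyceraldehyde-3-phosphate dehydrogenase) were spared by peaks. TOC75-I and PUM17 were the only genes with a symbol of their own that were at least 50% inside peaks. These 4 were chosen after their values were seen.
Upstream of NIA2, plus strand, chr1:14158252-14158451: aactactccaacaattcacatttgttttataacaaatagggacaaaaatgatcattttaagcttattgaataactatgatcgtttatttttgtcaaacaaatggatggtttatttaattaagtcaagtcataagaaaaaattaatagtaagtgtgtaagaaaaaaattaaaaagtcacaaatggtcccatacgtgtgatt
Upstream of GAPB, plus strand, chr1:16127153-16127352: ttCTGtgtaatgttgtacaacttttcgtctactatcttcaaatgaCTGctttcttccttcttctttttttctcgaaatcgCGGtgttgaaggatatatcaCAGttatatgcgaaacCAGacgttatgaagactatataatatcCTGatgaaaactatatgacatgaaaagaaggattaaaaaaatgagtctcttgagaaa
Upstream of TOC75-I, minus strand, chr1:13334051-13334250: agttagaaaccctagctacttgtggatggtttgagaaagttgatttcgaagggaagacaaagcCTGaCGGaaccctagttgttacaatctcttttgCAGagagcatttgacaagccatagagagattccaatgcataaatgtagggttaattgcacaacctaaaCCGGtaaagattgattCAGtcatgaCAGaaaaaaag
Upstream of PUM17, plus strand, chr1:13330310-13330509: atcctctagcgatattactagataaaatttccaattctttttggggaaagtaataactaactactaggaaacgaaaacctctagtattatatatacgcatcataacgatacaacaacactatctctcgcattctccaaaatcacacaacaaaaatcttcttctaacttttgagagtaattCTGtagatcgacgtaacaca
The windows held 0, 6, 7 and 1 CHG sites, and only that of TOC75-I was inside a peak. Over the 176 spared protein-coding genes the median was 3 sites (quartiles 2 and 5), and 91.5% of windows held at least 1. Over the 45 genes at least 50% inside peaks the median was 4 (quartiles 2 and 6), and 97.8% held at least 1. The ranges overlapped widely, so the number of CHG sites before the start did not separate covered from spared genes.

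Peaks covered 2173056 bp, or 54.3% of the pericentromere and 56.6% of its sequenced bases. On the arms of chromosome 1 they covered 2.33%. The share was 54.4% in the pericentromere of chromosome 3 and 54.9% in that of chromosome 5. Of sequenced bases alone, these shares were 54.4% and 55.0%, since most of the unsequenced bases of the 3 regions lie on chromosome 1.

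Coverage was densest in the middle of the region. In successive stretches of 1 Mb from the lower border, peaks covered 31.4%, 60.3%, 88.8% and 36.8% of bases. The second stretch held most of the unsequenced bases and reached 71.6% without them. Of 40 bins of 100 kb, 11 were at least 80% inside peaks and 4 were under 20%. The highest was chr1:14400001-14500000 at 99.2% and the lowest was chr1:12900001-13000000 at 8.46%. Protein-coding genes ran the other way, with 103, 31, 13 and 87 in the 4 stretches. Pseudogene loci were spread more evenly, with 100, 122, 127 and 119.

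The bins also showed how far the mark and the genes avoided each other. In the 16 bins with at least 15% of bases in protein-coding genes, the share of sequenced bases inside peaks had a median of 28.7% (8.46% to 50.2%). In the 13 bins with under 5%, the median was 93.9% (63.3% to 99.2%), and these 2 sets did not overlap. The 11 bins between them had a median of 58.6% (27.6% to 92.1%) and overlapped both sets. Unique sequence fell over the same bins. A median of 91.9% of 50-mers occurred only once in the genome in the 16 bins, 80.6% in the 11 and 41.9% in the 13. The part of unique sequence in the difference was not tested.

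**Figure D1:**
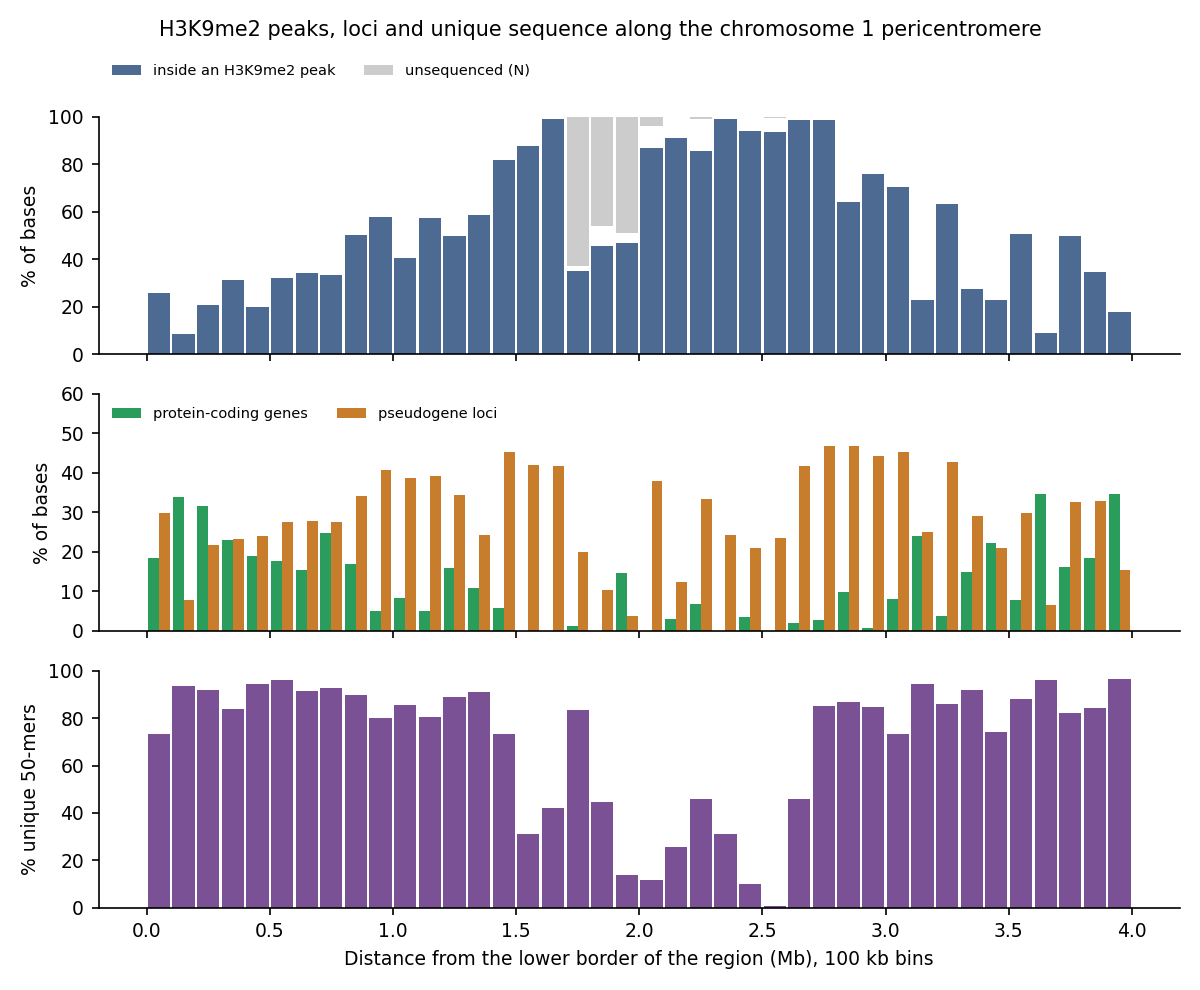
Bars give, for each of 40 bins of 100 kb, the percent of bases inside a peak (blue) and unsequenced (gray, top), the percent in protein-coding genes (green) and pseudogene loci (orange), and the percent of 50-mers that occur once in the genome (purple), against the distance from the lower border in Mb. Coverage rises from 8.46% in the lowest bin to 99.2% in the highest, while protein-coding genes and unique sequence are sparse in the middle.

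Individual peaks ranged from 243 to 147138 bp in width, with a median of 1178.5 bp (quartiles 462 and 3695). The authors' fold ranged from 1.56 to 9.94, with a median of 2.64 (quartiles 2.14 and 3.89). Their −log10 q-value ranged from 1.49 to 188, with a median of 10.9. A few wide peaks held most of the covered bases: the 50 peaks of at least 10 kb held 59.5%, and the 10 widest held 28.5%. On chromosomes 3 and 5 the peaks of at least 10 kb numbered 56 and 50 and held 46.1% and 61.8%.

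Wider peaks had higher folds, although width and fold come from the same calls on the same reads and are not independent measures. The median fold was 2.13 for the 236 peaks under 1 kb, 3.63 for the 228 of 1 to 10 kb and 6.26 for the 50 of at least 10 kb. No peak under 1 kb had a fold above 3.50, and the lowest among those of at least 10 kb was 2.14. Not every wide peak followed the trend. The widest, chr1:15436170-15583307, was 147138 bp wide, with a fold of only 3.34 and a summit window with 1592 copies in the genome. Also among the 10 widest, chr1:15346679-15390517 and chr1:15104782-15139010 had folds of 3.11 and 2.70. The rest of the 10 had folds of 5.59 to 8.77.

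**Figure D2:**
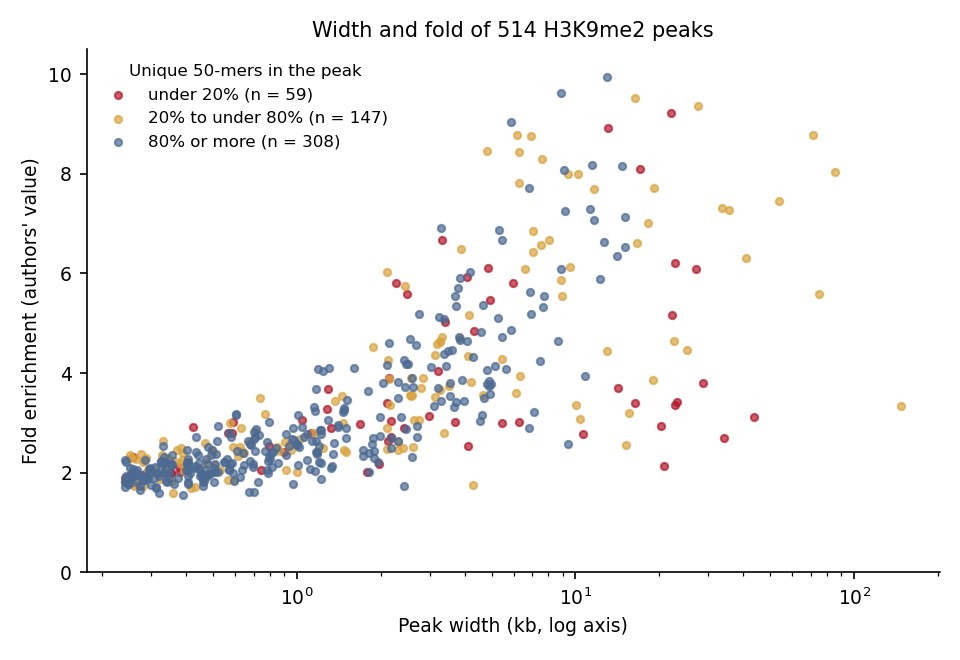
Each point is 1 of the 514 peaks, with its width in kb on a log axis, the authors' fold on a linear axis, and color for the percent of its 50-mers that occur once in the genome. Peaks under 1 kb stay at or below a fold of 3.50, and peaks of under 20% unique sequence (59) reach widths of up to 43839 bp.

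The peak of the highest fold, 9.94, was chr1:16381038-16394049, 13012 bp over the pseudogenes AT1G43444 and AT1G43502. The next was chr1:13506656-13515544 (fold 9.63) over AT1G36120. Its summit window had 1 copy in the genome, while that of the former had 39. The third, chr1:14333470-14349777 (fold 9.52), covered AT1G38185 and 3 other pseudogenes. The fourth, chr1:13935590-13963032 (fold 9.36), had its summit in AT1G36810, and the fifth, chr1:14378595-14400619 (fold 9.22), in AT1G38270. Of the fifth, 5.49% of 50-mers were unique, against 90.4% of the first, so folds near the top of the range came from both unique and repeated sequence.

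Joined across gaps of up to 1 kb, the peaks formed 198 domains with a median width of 4570.5 bp. 81 of them were single peaks. 45 were at least 10 kb wide, and the 10 of at least 50 kb held 43.6% of all domain bases. The widest, chr1:14310584-14511752, spanned 201169 bp in 13 peaks with a highest fold of 9.52. It overlapped 34 pseudogene loci and 0 protein-coding genes, and its upper end lay at a run of N of 27000 bp, so its extent past that point cannot be read from this assembly.

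The next domains were similar in makeup. chr1:15391811-15583307 (191497 bp) overlapped 38 pseudogene loci and 2 protein-coding genes, AT1G40390, described as DNase I-like and wholly inside, and AT1G41820, of no described function, which crossed the edge with 32.5% of its length in the domain. chr1:15089011-15240802 (151792 bp) overlapped 11 pseudogene loci and AT1G40129, which reached over the edge with 7.18% of its length in the domain. chr1:14188273-14283058 (94786 bp) overlapped 17 pseudogene loci and 0 protein-coding genes. chr1:14922024-14998704 (76681 bp) overlapped 2 pseudogene loci and the genes AT1G40083 (82.8% inside peaks) and AT1G40086 (wholly inside), both of no described function. This last domain stood apart in sequence, with a GC content of 32.6% and 94.2% of its bases masked as repeats. In the widest domain these were 40.7% and 46.3%.

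The 2 kinds of tandem repeat shown above were almost wholly inside peaks. Of 121 windows of 1 kb with a period of 158 or 159 bp, between positions 14609001 and 15037000, all were touched by a peak and 103 were wholly inside. They lay in 25 peaks with folds of 2.28 to 8.10. A mean of 96.6% of each window was inside peaks, but the sequence around them was densely covered too. In the bins of 100 kb from 14600001 to 15100000, which include these windows, 84.03% to 92.1% of sequenced bases were inside peaks. Whether the repeat was covered more than its surroundings was not tested. Summit windows between 14609001 and 15037000 had up to 1378 copies in the genome, so the repeat windows are not separate measurements. The period of 178 bp, that of the Arabidopsis centromere satellite, was found in 5 windows, 4 of them wholly inside peaks. Long satellite arrays are mostly missing from this assembly, so these windows stand for little of the centromere. Gene models reached into both repeats. AT1G40104, a protein-coding model of no described function, lay wholly in the peak over the 178 bp unit, and AT1G39070, a 12459 bp model, was 97.5% inside a peak of fold 3.43.

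A tandem duplication lay in the third stretch of 1 Mb. Its copies, chr1:15216971-15312962 and chr1:15313126-15411044, were 99.9% identical, and 94.0% and 93.7% of their bases were inside peaks. Only 0.535% and 0.532% of their 50-mers were unique. Reads from one copy cannot be told from the other over most of their length, so the 11 peaks on the former (folds 1.97 to 3.81) and the 9 on the latter (1.90 to 3.90) are not separate measurements.

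Repeated sequence was common among the peaks in general. Inside peaks 55.9% of 50-mers were unique, against 91.5% outside. In the pericentromeres of chromosomes 3 and 5 the share inside peaks was 77.5% and 72.4%, while outside it was 92.6% and 90.6%. 59 peaks with under 20% unique 50-mers held 452067 bp and had a median fold of 3.03. 308 peaks with at least 80% held 652447 bp and had a median fold of 2.45. How the reads that match several places were placed is not given in the sources used here, and its part in these folds was not tested.

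The copies of each summit window showed the same from another side. Of the 514 windows, 435 (84.6%, interval 81.3% to 87.5%) had at least 2 copies in the genome at 80% identity or more over 80% of the window, and 72 (14.0%) had at least 100. Of the 193 windows centred on gaps, 104 (53.9%, interval 46.8% to 60.8%) had at least 2 and 3 (1.55%) had at least 100. Fold did not climb steadily with copy number. Its median was 2.63 for the 79 windows with 1 copy, 2.41 for 2 to 9 copies, 3.25 for 10 to 99 and 2.99 for 100 or more.

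Peaks and gaps differed in base composition. The median GC content was 38.8% over the 514 peaks (quartiles 36.5% and 41.5%) and 31.2% over the 193 gaps (29.4% and 33.3%). CHG cytosines, counted on both strands, had a median of 5.24 per 100 bp in peaks and 3.20 in gaps. For CG the medians were 4.65 and 3.82, and for CHH they were 28.9 and 23.9. The upper quartile of the gaps in GC content lay under the lower quartile of the peaks. Recovery of fragments in sequencing can vary with GC content, and its part in the calls was not tested.

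**Figure D3:**
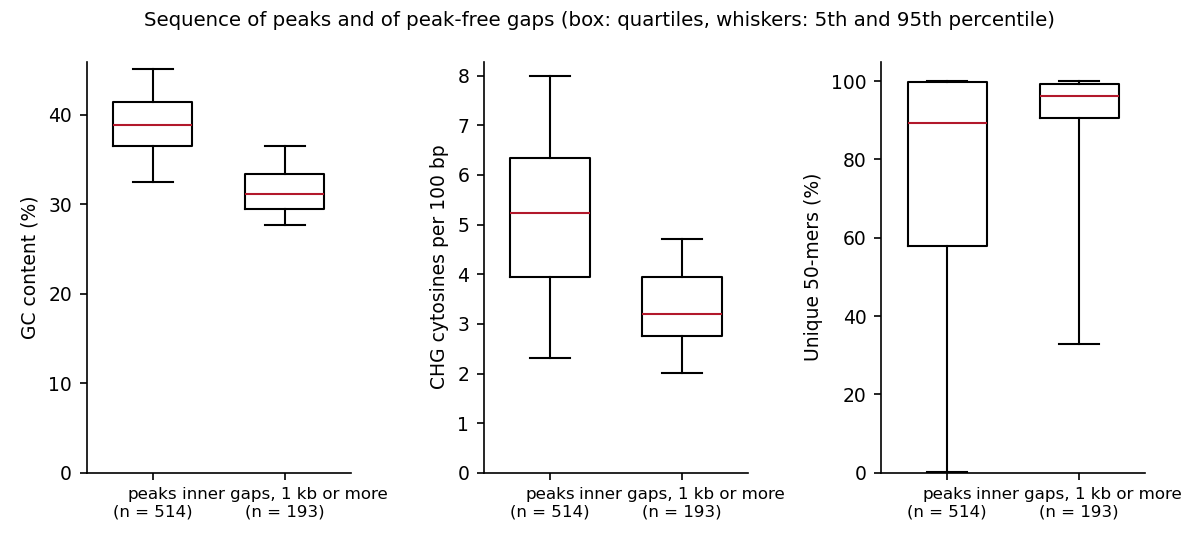
Boxes give the quartiles and median (red line) and whiskers the 5th and 95th percentiles over 514 peaks and the 193 gaps of at least 1 kb that are neither at a border nor mostly N, for GC content in percent, CHG cytosines of both strands per 100 bp, and the percent of 50-mers that occur once. The median GC content is 38.8% in peaks and 31.2% in gaps, and the percent of unique 50-mers reaches far lower in peaks.

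Peak-free gaps numbered 515, of which 316 were under 1 kb, with a median of 555 bp. The 44 gaps of at least 10 kb held 63.4% of all gap bases. 4 of them were mostly runs of N, where no read can map. 37 of the other 40 held at least 1 whole protein-coding gene, and protein-coding genes made up 33.9% of the bases of those 40. The 3 that held none were chr1:16589471-16608413, chr1:13580982-13592930 and chr1:13806612-13818206, with GC contents of 28.6%, 28.5% and 28.6% and 91.1%, 98.5% and 94.6% unique 50-mers. For comparison, protein-coding genes made up 20.6%, 6.17%, 2.87% and 18.5% of bases in the 4 successive stretches of 1 Mb. Most wide gaps in sequenced DNA thus held a gene. Many of the 45 domains of at least 10 kb overlapped a protein-coding gene too, so a stretch this long could meet a gene in either setting. An overlap of any length counted for domains and only whole genes for gaps, so these counts cannot be compared directly. By bases, protein-coding genes made up 3.35% of all peak bases, against the 33.9% in those 40 gaps.

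The widest gap, chr1:13023601-13085384, was 61784 bp long and held 13 whole protein-coding genes. Among them were CYCT1;1 (a cyclin of the T type), FBH1 (a bHLH transcription factor that promotes flowering), RALFL5 (a RALF-like signaling peptide), RanBPM (a Ran-binding protein homolog) and HOS10 (a MYB factor). RanBPM lay 27556 bp from the nearest peak, the farthest of any spared gene. The next gaps, chr1:14750765-14804020 (53256 bp) and chr1:14610769-14657489 (46721 bp), were 99.5% and 98.4% N. chr1:12953088-12997795 (44708 bp) held 7 genes, among them MLP168 of the major latex protein family. chr1:16434231-16475894 (41664 bp) held 8, among them TLP5 (a tubby-like protein), UMAMIT22 (an amino acid transporter of the UMAMIT family) and FBP, listed below.

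**Figure D4:**
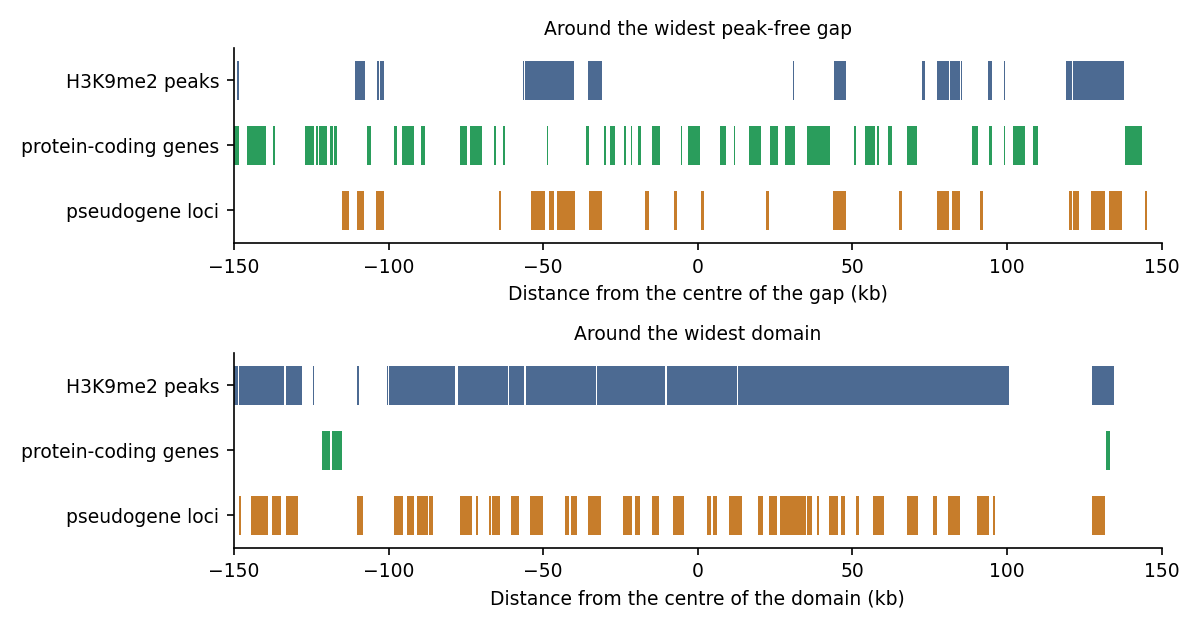
Each panel spans 150 kb on either side of the centre of the widest gap (top) and of the widest domain (bottom), with peaks in blue, protein-coding genes in green and pseudogene loci in orange, against distance in kb. The gap of 61784 bp holds 13 whole protein-coding genes, and the domain of 201169 bp overlaps 34 pseudogene loci and no protein-coding gene.

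Protein-coding genes were mostly spared and pseudogene loci mostly covered. Of 234 protein-coding genes, 58 (24.8%, interval 19.7% to 30.7%) had at least 1 bp inside a peak, against 2.53% over all 5 chromosomes and 0.953% on the arms of chromosome 1. Of 468 pseudogene loci, 408 (87.2%, interval 83.8% to 89.9%) did, against 70.6% over all chromosomes and 34.8% on the arms. Of 54 lncRNA genes, 3 (5.56%, interval 1.91% to 15.1%) did, against 2.7% over all chromosomes. 45 protein-coding genes (19.2%) were at least 50% inside peaks, against 1.94% over all chromosomes, and 26 were wholly inside. For pseudogene loci these numbers were 387 (82.7%, against 65.6%) and 268. 2 lncRNA genes (3.70%) were at least 50% inside, against 2.39% over all chromosomes.

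The share of protein-coding genes touched on chromosome 1 lay between those of the 2 other pericentromeres. On chromosome 3, peaks touched 90 of 292 protein-coding genes (30.8%, interval 25.8% to 36.3%) and 657 of 783 pseudogene loci (83.9%). On chromosome 5 they touched 46 of 249 (18.5%, interval 14.1% to 23.8%) and 564 of 659 (85.6%). The intervals of chromosomes 3 and 5 for protein-coding genes did not overlap each other, and both overlapped that of chromosome 1. Neighboring loci can share a peak or domain, so these intervals may be too narrow, and no difference between chromosomes was tested. Of lncRNA genes they touched 16 of 75 (21.3%, interval 13.6% to 31.9%) on chromosome 3 and 9 of 43 (20.9%, interval 11.4% to 35.2%) on chromosome 5. Both intervals overlap that of chromosome 1. The 3 lncRNA genes touched on chromosome 1 were AT1G07007 and AT1G07017, wholly inside, and AT1G06993, 49.2% inside. 1 of the 22 other loci was touched, against 5.16% of such loci over all chromosomes. It was the tRNA gene AT1G43820, which lay wholly in a peak of fold 5.55. These 4 were named after their values were seen.

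By bases, 86.7% of pseudogene sequence and 15.1% of protein-coding gene sequence was inside peaks. Pseudogene loci made up 47.0% of all peak bases and protein-coding genes 3.35%, while sequence in neither made up 49.6%. Within protein-coding genes, 11.9% of exon bases and 21.1% of intron bases were inside peaks. Of the sequenced bases in neither class, 49.5% were inside peaks, below the 56.6% of all sequenced bases of the region. Much of the H3K9me2 thus lay outside the protein-coding genes and pseudogene loci, but such sequence was not covered more than the region as a whole. The annotation gave no transposon class for these loci.

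Most of the spared genes lay in wide gaps, although many had a peak within 5 kb. Of the 234 protein-coding genes, 147 (62.8%, interval 56.5% to 68.8%) lay wholly in gaps of at least 10 kb, against 35 of 468 pseudogene loci (7.48%). The 176 spared genes lay a median of 4672.5 bp from the nearest peak (5 to 27556 bp). 20 had a peak within 1 kb and 90 within 5 kb. The nearest peak was upstream of the start for 88 and downstream of the end for 88, so neither side was favored.

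Some genes escaped in narrow gaps. AT1G43330, described as homeodomain-like, sat in a gap of 2943 bp and ended 232 bp short of the next peak. AT1G36627, described as a serine/threonine kinase, sat in a gap of 3110 bp, and AT1G35290, a thioesterase family gene, in one of 3927 bp. AT1G36005 (a receptor-like kinase by its description) and AT1G41880 (a ribosomal protein of the L35Ae family) followed, in gaps of 4011 and 4012 bp. The last lay 946 bp from its nearest peak.

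Around locus borders both classes had more peaks just inside than just outside. The share of pseudogene loci with the base inside a peak was 59.4% at 950 bp before the start and 78.2% at 950 bp after it, and it was 77.3% and 64.1% at the same distances before and after the end. For protein-coding genes it was 29.7% at 4950 bp before the start, fell to 13.3% at 350 bp before it and was 21.0% at 250 bp and 16.1% at 950 bp after it. At the end it was 18.5% at 150 bp before, 12.5% at 250 bp after and 28.6% at 4950 bp after. Peaks thus thinned toward protein-coding genes over several kb, with a small rise inside the genes, while around pseudogene loci the outside level changed little with distance.

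**Figure D5:**
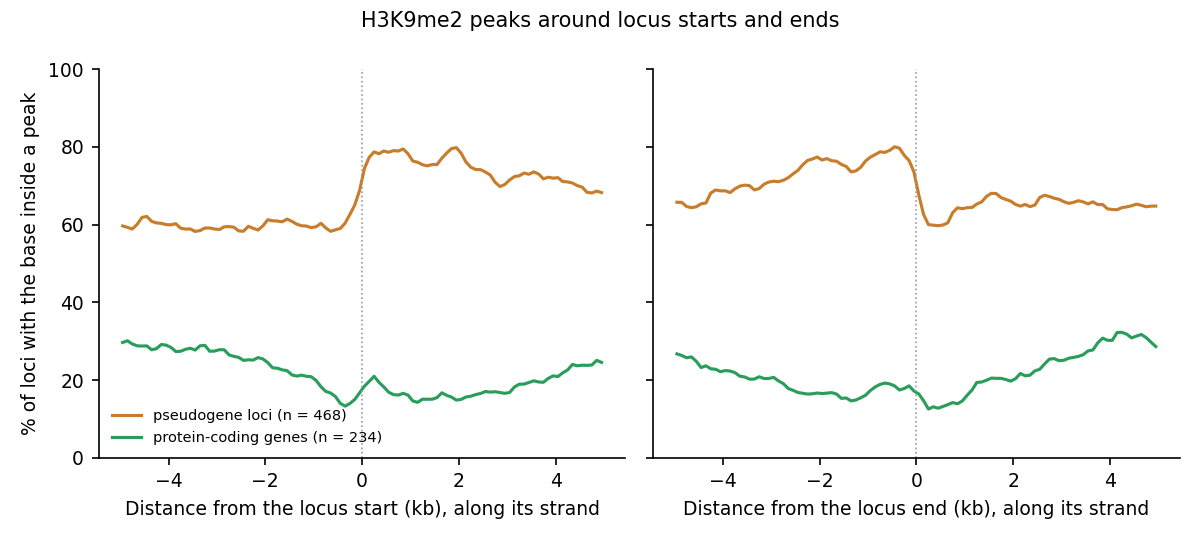
Lines give the percent of 468 pseudogene loci (orange) and 234 protein-coding genes (green) whose base at each distance is inside a peak, in bins of 100 bp within 5 kb of the start (left) and the end (right), along the locus strand. The pseudogene line steps up at the start, from 59.4% at 950 bp before it to 78.2% at 950 bp after it, while the gene line dips to 13.3% at 350 bp before the start and reaches 21.0% at 250 bp after it.

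Of the 58 touched protein-coding genes, 41 had the start inside a peak, 40 the end, 31 both and 8 neither. 3 had no coding base inside. The 45 genes at least 50% inside were shorter than the spared ones, with a median of 1139 bp against 1839 bp. Their GC content (39.0% and 37.9%) and unique sequence (97.0% and 100%) were close in median.

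Of the 59 genes with a symbol of their own, 55 (93.2%) were spared, beside 176 of all 234 (75.2%), 2 were touched over less than 50% and 2 were at least 50% inside. TOC75-I lay wholly inside a peak of fold 5.32. It is annotated as a pseudogene of TOC75, the channel of the outer chloroplast membrane, with a gypsy-type retrotransposon inserted at its 5′ end, although it is counted here among the protein-coding genes. Its neighbor PUM17, of the Pumilio family of RNA-binding proteins, was 91.8% inside, in a separate peak of fold 3.16 that began 82 bp within the gene. The window before PUM17 printed above thus lay between that peak and another of fold 4.06, while that before TOC75-I lay within a peak. With peaks joined, both windows fell in the domain chr1:13325163-13339602.

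Auxin response factors, which bind auxin-responsive promoters, have 4 members in the region. ARF15 was 10.3% inside a peak of fold 2.07 and ARF23 was 18.5% inside one of fold 2.36. ARF20 and ARF14 were spared, 12661 and 6282 bp from the nearest peak. 0 of the 4 was at least 50% inside.

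Enzymes of primary metabolism were spared in 7 of 7 cases, beside 93.2% of all genes with a symbol, so the count is near the background. ACC1 and ACC2, both acetyl-CoA carboxylases for fatty acid synthesis, lay next to each other, 12524 and 1348 bp from the nearest peak. NIA2 was 12558 bp away and GAPB 2526 bp. CINV1, a cytosolic invertase that splits sucrose, was 1709 bp away, and SHM7, a serine hydroxymethyltransferase, 1507 bp. FBP, a fructose-1,6-bisphosphatase by its note and an inositol monophosphatase family protein by its product name, was 5394 bp away. Distances in this group thus ran from just over 1 kb to over 12 kb.

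The listed regulators of transcription and signaling were spared in 9 of 9 cases, again near the 93.2% of genes with a symbol. This list leaves out the auxin response factors (2 of 4 touched) and other DNA-binding proteins (4 of 14 touched), which were listed apart. SEU, a co-regulator that represses AGAMOUS in the outer floral whorls, was 3739 bp from the nearest peak. BZIP60, a factor of the unfolded protein response, was 10896 bp away, RAP2.6, an ERF family factor, 17492 bp, and VIP1, a bZIP protein, 2644 bp. CDPK2, a calcium-dependent kinase, was 13043 bp away, ANNAT1, an annexin, 3486 bp, and GF14 PHI, a 14-3-3 protein, 1034 bp. GLR3.3, a glutamate receptor-like channel, lay 3220 bp and PMI1, which acts in plastid movement, 6971 bp away.

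F-box proteins, which select targets for degradation, were spared in 3 of 3 cases and protein kinases in 5 of 5, beside 75.2% of all protein-coding genes. The 3 F-box genes AT1G36030, AT1G43005 and AT1G44080 lay 2232, 13484 and 3289 bp from the nearest peak. The 5 kinase genes were CDPK2, AT1G35710 (6044 bp), AT1G36005 (970 bp), AT1G36627 (1033 bp) and AT1G36990 (2750 bp), the last described as a kinase-interacting protein. The 1 defensin-like gene, AT1G35537, lay 2778 bp away.

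Other lists were mixed, beside 24.8% of all protein-coding genes touched. Of 6 ribosomal and translation genes, 1 was inside, AT1G36240, of the L7Ae/L30e family, 84.5% in a peak of fold 2.03. Of 14 genes for zinc finger and other DNA-binding proteins, 4 were touched, near that share. 3 of these shared the description of a zinc finger protein related to general transcription factor 2, namely AT1G41920 (wholly inside), AT1G42710 (85.1%) and AT1G35150 (70.8%). The fourth, AT1G43770, a RING/FYVE/PHD zinc finger gene, was 2.15% inside.

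Of protein-coding genes described by transposon proteins, 5 of 6 were touched, beside 24.8% of all. 4 were wholly inside, beside 11.1% of all: AT1G36085 (mutator-like transposase), AT1G42190 (GAG/POL/ENV polyprotein), AT1G43260 (hAT superfamily) and AT1G43730 (related to reverse transcriptase). AT1G40087, a plant transposase of the En/Spm family, was 12.5% inside. The spared one, AT1G36060, matched only through the word integrase in the name of its DNA-binding family. Of 63 genes whose product is listed as uncharacterized, hypothetical or of unknown function, 29 were touched and 22 were at least 50% inside, where all 234 genes had 58 and 45. RAP2.6 is among the 63, although its note names its family.

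Pseudogene loci inside peaks were longer than spared ones, with a median of 2429 bp against 909 bp. Their unique sequence was lower, at a median of 81.5% against 100%. Of the 468, 408 (87.2%) were touched, against 70.6% over all chromosomes. 458 carried no description, and 406 of these were touched, near the 87.2%. Of the 10 with a description, 2 were. The 3 loci described as LINE-type or Sadhu retroelements were all spared, at 705 bp (SADHU2-1), 14730 bp (AT1G35186) and 4646 bp (AT1G43675) from the nearest peak. The lists for Gypsy or Athila, Copia, CACTA, Mutator and hAT pseudogenes matched 0 loci, since so few carry a description.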

How the data were processed

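Peaks of 1 H3K9me2 ChIP-seq library were used as deposited. The submitters' processing notes name Bowtie 1.1.2, SAMtools, MACS2 2.1.1 and TAIR10. The control, the mapping options and the thresholds are not given in the sources used here. The deposited fold is a ratio over a background, the deposited −log10 p-values and −log10 q-values measure the strength of each peak, and the deposited score is close to 10 times the latter. Summits and ends were deposited as positions. The file holds no read counts, so the depth is unknown.

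Positions were read on TAIR10.1 with its RefSeq annotation. 0 peaks ran past a chromosome end, and 8 of 10 edges of runs of N of at least 1 kb lay within 250 bp of a peak edge. Summits placed the peaks in a region, and midpoints placed the loci. A locus was touched with at least 1 bp inside a peak. A pericentromere was the longest run of 100 kb bins in which the protein-coding share, averaged over 5 bins, stayed below 50% of its median on that chromosome. A 50-mer was unique if it occurred once in the genome, counting both strands, the organelles included. Copies were counted with BLAST+ 2.17.0. Scripts ran on Python 3.11.15 with pandas 2.3.3, NumPy 2.4.6, matplotlib 3.10.9 and SciPy 1.17.1. The interval and 50-mer code was tested on simulated data. Sequences are from RefSeq. The members, the gene lists and the alternatives were chosen with earlier results of these data known, and 2 list patterns that matched unrelated words were corrected after the matches were seen.

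Named items were the 5 widest domains and gaps, the 5 peaks of the highest fold, protein-coding genes in those domains, genes with a symbol at least 50% inside peaks or in the widest gaps, the 5 genes spared in the narrowest gaps and list members. Any other item was named after its value was seen. Alternatives changed the fold, q-value and width minimum, the joining distance, the overlap, the gap minimum and the borders.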

Additional observations from a re-analysis of the deposited data

How the results depend on the processing

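No paired analysis was possible because 1 library was analysed. The values have no replicate error, depth is unknown, and repeated sequence and the unstated control limit what a peak shows at 1 place. No value reversed. The share of bases inside peaks (54.3%) was 49.2% with peaks at or above the median fold of all deposited peaks, 33.1% at or above the upper quartile, 53.2% with a −log10 q-value of at least 5, 53.1% with peaks of at least 500 bp, 56.9% with peaks joined within 1 kb, 56.6% without N and 58.0% with borders 200 kb inward. The share of protein-coding genes touched (24.8%) was 15.4% at the median fold, 8.55% at the upper quartile and 19.2% with 50% overlap. The share of pseudogene loci touched (87.2%) was 78.6% and 54.9% at these folds, 83.8% with the q-value minimum, 83.5% with the width minimum, 82.7% with 50% overlap and 89.9% with borders inward. Domains (198) numbered 109 at the upper quartile and 81 when joined within 5 kb. Gaps of at least 10 kb (44) numbered 67 at the upper quartile, and 25 reached 20 kb. The share of protein-coding genes wholly in wide gaps (62.8%) was 73.9% at the median fold, 87.6% at the upper quartile and 45.7% in gaps of at least 20 kb. The other 18 values stayed within their interval or the spread of the peaks or, for counts, stayed within 1.5 times, and the difference in median GC content stayed between 7.38 and 9.97 percentage points. The cause of the shifts was not tested beyond the fewer peaks or loci that each setting keeps.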
